A study of Mus musculus with 3 samples.

Results

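BAF complexes are chromatin remodellers that use ATP to move or evict nucleosomes, and they are built from subunit families of which each complex carries alternative members. The genes described here are 10 subunit genes of 3 such families and of the ATPases: the double PHD finger subunits Dpf1, Dpf2, Dpf3 and Phf10, the ATPases Smarca2 and Smarca4, the accessory subunits Smarcd1 and Smarcd3, and the actin-related subunits Actl6a and Actl6b. Their probes were found by gene name or older symbol and checked by the RefSeq accession in the scanner files, which gave 16 of the 41174 probes on the array. Dpf1, listed there under its older symbol Neud4, was chosen by its log2 ratio, which stood among the largest rises of the comparison below, and the other genes because they encode alternative or partner subunits. The ratios of these 10 genes are therefore a description of the arrays, with no test. Of them, 9 genes with 12 probes passed the filter on dim probes, among 16842 genes in all.

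The arrays measured otic placodal ectoderm, the patch of head ectoderm that forms the inner ear, from mouse embryos of 4 to 8 somites. The first genotype was Fgf3-/-;Fgf10-/- (double null), which lacks both fibroblast growth factors, and the other was Fgf3+/-;Fgf10+/- (double heterozygote), which carries 1 null copy of each gene. Each genotype gave 3 pools of 10 microdissected placodes, and each of 3 arrays carried 1 double null pool labelled with Cy5 and 1 double heterozygote pool labelled with Cy3. No pool was hybridised with the dyes exchanged, so a probe's dye effect and the genotype cannot be told apart, and no wild-type placodes were compared. A pool can mix embryos of different somite number, and in such pools fewer cells of a type and less RNA per cell cannot be told apart.

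In the nervous system BAF subunits are exchanged as progenitors leave the cell cycle. Phf10 and Actl6a belong to the complex of neural progenitors, and Dpf1, Dpf3 and Actl6b take their places in the complex of postmitotic neurons, while Dpf2 is widely expressed. The paired PHD fingers of the Dpf proteins bind modified tails of histone H3, and Dpf3 and Smarcd3 are known for roles in heart and skeletal muscle development.

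The probes on which the following values rest are shown by the first 30 of their 60 bases, 5′ to 3′, because each value is the brightness of such an oligonucleotide. Dpf1, Phf10 and Dpf3 each had a single probe, Smarca4 had 3 that differed from each other, and the 2 Actl6b probes were not well above background. Positions are those of the files on mm7, and no annotation of that build was used, so exon and UTR are not given.
Dpf1 probe, chr7:26256902-26256961, plus strand: tgtggttgtttctcgtggttgtgtgtgttt
Phf10 probe, chr17:13225873-13225932, minus strand: aagaggggtaaaataggctttgaccctcat
Dpf3 probe, chr12:81266814-81266873, minus strand: gccgcagcacgtaccacggaggacttattc
Smarca4 probe at chr9:21582352-21582411, plus strand: ccagatgtagtttcgaacttggagaactgt
Smarca4 probe at chr9:21520316-21521714, plus strand: ggaggcttatggctgaagatgaggagggct
Smarca4 probe at chr9:21514928-21514987, plus strand: aaccccatttaaccagaaccagctgcatca
Actl6b probe at chr5:136484019-136484274, plus strand: tccaagtcctggcataactacatgtgtaac
Actl6b probe at chr5:136484284-136484834, plus strand: tctgattccccttacgatgaacaggtagct

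The windows of 250 bases before a RefSeq start of Dpf1 and of Phf10 are shown because these genes had the highest and the lowest ratio of the 9 measured. They come from RefSeq on GRCm38.p6, where all 10 genes had a window, and letters in capitals mark matches of either strand to GGGCGG (GC box) or CAGCTG (E-box).
Dpf1, chr7:29303755-29304004, plus strand: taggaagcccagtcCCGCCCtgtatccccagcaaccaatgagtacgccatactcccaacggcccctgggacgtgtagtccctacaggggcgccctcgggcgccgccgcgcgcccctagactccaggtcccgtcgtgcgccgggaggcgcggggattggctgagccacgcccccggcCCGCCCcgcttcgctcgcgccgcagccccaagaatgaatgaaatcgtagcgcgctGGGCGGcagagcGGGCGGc
Phf10, chr17:14961261-14961510, minus strand: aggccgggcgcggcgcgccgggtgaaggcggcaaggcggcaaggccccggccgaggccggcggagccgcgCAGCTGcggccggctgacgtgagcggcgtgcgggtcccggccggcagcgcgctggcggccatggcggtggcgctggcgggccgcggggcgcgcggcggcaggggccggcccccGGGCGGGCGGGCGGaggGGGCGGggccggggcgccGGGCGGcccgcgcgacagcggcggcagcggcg
The Dpf1 window had 71.6% of its bases as guanine or cytosine, with 31 CpG sites and 4 GC boxes. The RefSeq span of Dpf1 begins at 29303952, inside this window, so the window's 3′ end with its last 2 GC boxes lies within the gene. The Phf10 window had 88.4% as guanine or cytosine, with 51 CpG sites, 5 GC boxes and 1 E-box. The medians over all 32851 windows were 52.4% and 6 CpG sites. At least 1 GC box was found in 32.7% of all windows and at least 1 E-box in 13%. CCGGAAGT, a motif of ETS factors that act downstream of fibroblast growth factors, was found in 2.88% of all windows, and the motif TATAAA of core promoters in 12.4%. Neither was found on either strand in the window of Dpf1 or of Phf10.

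Values below are log2 ratios of double null over double heterozygote after background correction and loess normalization within each array, or log2 levels of each channel on that scale. The double null channel had 27284 to 29177 spots well above background on an array, and the double heterozygote channel 26452 to 28258. The correlation of the ratios between arrays, across genes, which are not independent replicates, ran from r = 0.391 to 0.469. In limma, at a Benjamini-Hochberg adjusted p under 0.05, 2.44% of genes were called, 1.89% higher and 0.552% lower in the double null. Fgf3 had ratios of -0.69, -0.06 and -0.69 (limma adjusted p = 0.11) and Fgf10 of 0.31, -0.11 and 0.23 (limma adjusted p = 0.368), and whether their probes lie in the deleted part was not tested. Of 13 otic placode and epithelium markers, 11 were tested. The ratios of all 11 were negative, and their median was -0.215 against 0.00631 over all genes. This list was chosen with earlier results of these data known, so nothing is read from that count. Hmx3, a transcription factor of the early ear, fell by 1.01 (limma adjusted p = 0.049), but without replicate 3 it had adjusted p = 0.201. Pax2, a defining marker of the otic placode, did not pass the filter on dim probes, and Foxi3 was not analysed here.

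Among the 10 BAF genes Dpf1 gave more signal in double null placodes, and smaller differences in other subunits went both ways. The ratio was positive for 6 and negative for 3 of the 9 measured genes, with a median of 0.0405. The sign was the same on all 3 arrays for 7 of the 9 genes, beside 45.7% of all genes tested. The levels of the genotypes did not overlap for 5 of the 9, Dpf1, Dpf3, Phf10, Smarca4 at its brightest probe and Smarcd1, beside 13.1% of all genes tested. These counts include the gene that led to the choice, and nothing is read from them.

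The double PHD finger subunits include Dpf1, which was chosen by its ratio, so their spread is not read as a trait of the family. Dpf1, the neuronal member, had log2 levels of 12.15, 12.82 and 12.26 in double null placodes, against 11.03, 11.59 and 11.35 in double heterozygote placodes. Every double null pool was above every double heterozygote pool. The ratios were 1.12, 1.23 and 0.92, a mean of 1.09 ± 0.16 (SD, n = 3), which is 2.13-fold. Before normalization the spot read 7528, 11250 and 7518 intensity units in the double null channel over a local background of 67.5, 58 and 55.5. In the double heterozygote channel it read 1247, 1962 and 1686 over a background of 44.5, 49 and 44. On every array the spot stood far above its local background in either channel.

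Dpf1 held rank 9 from the top among the 16842 genes. Among the 2070 genes within 0.5 log2 units of its mean intensity, 1 had a higher ratio, Gt(ROSA)26Sor, a non-coding locus named after its value was seen. Leaving out the top and bottom 5% of those 2070 genes, their ratios ran from -0.19 to 0.19. Dpf1 was chosen by its ratio, so nothing is read from its rank or from these genes of like intensity. The ratio of Dpf1 ran from 1.02, without replicate 2, to 1.57, with median centring in place of loess, over 16 alternative settings. With median centring the median of all genes was also shifted, by 0.369, and Dpf1 stood 1.2 above it. The scanner's own processed signals gave 1.12, on which scale 0 genes of the array passed in limma and 3226 had an unadjusted p under 0.05.

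Phf10, the progenitor member that also serves in the related PBAF complex, ran the other way. Its log2 levels were 14.970, 15.001 and 15.095 in double null placodes, against 15.167, 15.236 and 15.353 in double heterozygote placodes. All double null pools were below all double heterozygote pools, by a narrow margin. The ratios of -0.20, -0.23 and -0.26 averaged -0.23 ± 0.03 (SD, n = 3), which is 0.853-fold. Among 524 genes of like intensity, 506 had a higher ratio and 18 a lower one. This direction depended on the scaling, because median centring gave 0.55, which is 0.18 above the median of all genes and -0.24 relative to genes of like intensity.

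Dpf3, the other neuronal member and a heart and muscle factor, was dim. Its spot read 202.7, 230.3 and 219.8 intensity units in the double null channel over a background of 53 to 58, against 88.4, 90.6 and 96.1 in the double heterozygote channel over a background of 45 to 50. Its log2 levels were 7.34, 7.58 and 7.52 in double null placodes and 7.17, 7.13 and 7.09 in double heterozygote placodes. The genotypes did not overlap, and the ratios were 0.16, 0.45 and 0.42, with a mean of 0.35 ± 0.16 (SD, n = 3). Processed signals gave 0.53, and median centring gave 0.28, which is -0.09 relative to all genes and 0.37 relative to genes of like intensity. Dpf2, the widely expressed member, had ratios of 0.03, -0.02 and 0.04 around a mean of 0.02 ± 0.03 (SD, n = 3), and its levels overlapped.

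**Figure D1:**
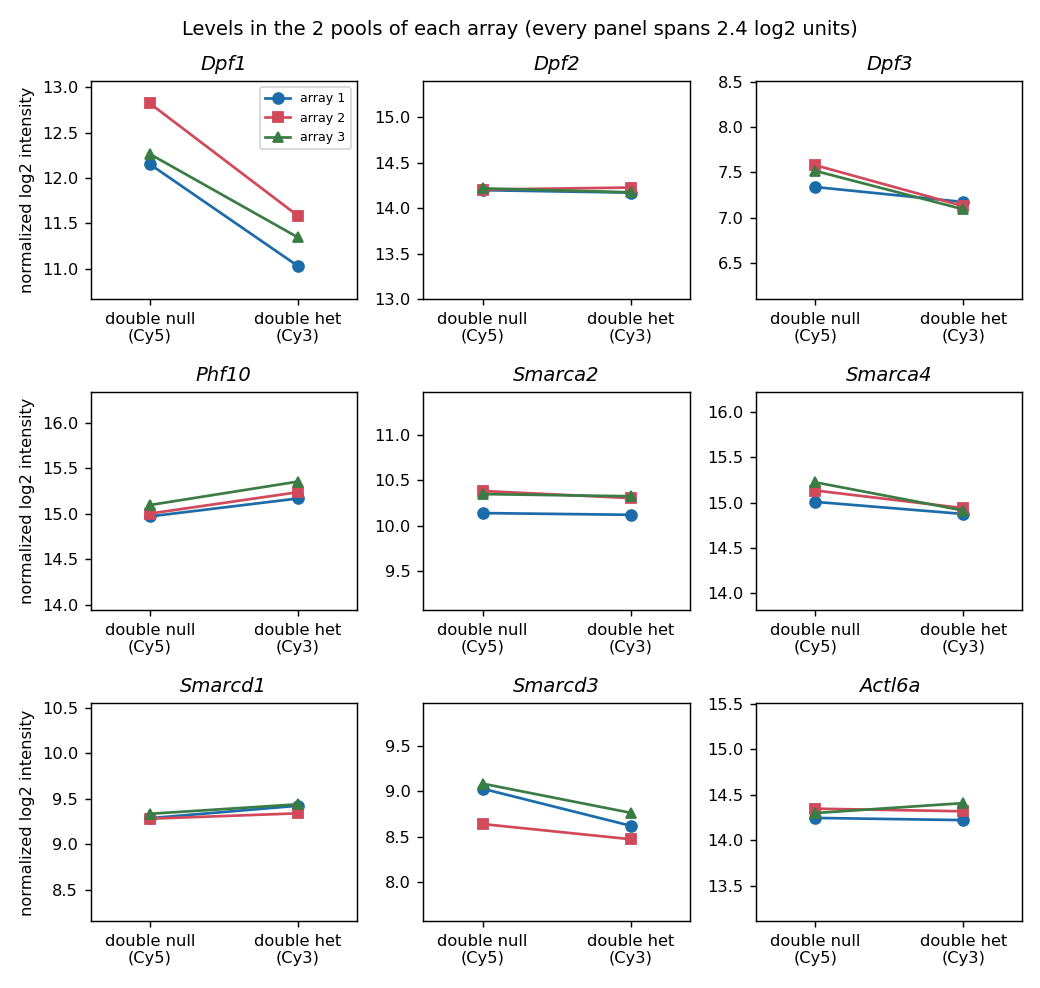
Log2 level of each measured BAF gene (panels) in double null and double heterozygote placodes, with a line joining the pools hybridised to the same array. The Dpf1 points lie at 12.15, 12.82 and 12.26 in double null pools and at 11.03, 11.59 and 11.35 in double heterozygote pools, and the Phf10 lines slope the other way.

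The ATPases, which drive the remodelling and replace each other in the complex, moved little. Smarca4 was read by 3 probes that did not give the same value. The brightest had log2 levels of 15.01, 15.13 and 15.22 in double null placodes, against 14.88, 14.94 and 14.91 in double heterozygote placodes, with ratios of 0.13, 0.19 and 0.31. Its genotypes did not overlap, and the mean ratio was 0.21 ± 0.09 (SD, n = 3). The probe at positions 21520316 to 21521714 had ratios of 0.08, 0.02 and 0.05, and the probe nearest the 5′ end of the gene had 0.01, -0.08 and 0.00. At both of these probes the genotypes overlapped. The mean over all 3 probes was 0.08, and without replicate 1 another probe became the brightest and gave 0.04.

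Smarca2, the alternative ATPase, had 1 probe above background among 3. That probe gave ratios of 0.02, 0.08 and 0.02, with a mean of 0.04 ± 0.03 (SD, n = 3) and overlapping levels. The other 2 Smarca2 probes were not well above background in either genotype on any array, and no ratio is given for them.

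The Smarcd subunits link the complex to transcription factors. Smarcd3, known for its role in heart and muscle, had log2 levels of 9.03, 8.64 and 9.09 in double null placodes, against 8.62, 8.47 and 8.77 in double heterozygote placodes. The ratio was positive on each array, at 0.41, 0.17 and 0.32, with a mean of 0.30 ± 0.12 (SD, n = 3), but the levels of the genotypes overlapped between arrays. Median centring gave 0.53 for Smarcd3, which is 0.165 above the median of all genes and 0.28 relative to genes of like intensity. Another probe, tied to Smarcd3 only by its description, had ratios of 0.09, 0.06 and 0.00. It was well above background in the double null channel only. Smarcd1 had levels of 9.29, 9.28 and 9.33 in double null placodes and 9.42, 9.34 and 9.44 in double heterozygote placodes. These did not overlap, and the ratios of -0.14, -0.06 and -0.10 averaged -0.10 ± 0.04 (SD, n = 3). Median centring gave 0.21 for Smarcd1, which is -0.16 relative to the median of all genes.

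Of the actin-related subunits, the progenitor form Actl6a was read by 2 probes. The brighter probe had ratios of 0.02, 0.03 and -0.11, and the dimmer one 0.17, -0.04 and -0.20. Neither kept its sign over the arrays, and the levels overlapped at both. The neuronal form Actl6b was not well above background at either probe, in either genotype, on any array. Its spots read 68.2 to 86.6 intensity units over a background of 47.5 to 68 in the double null channel, and 47.4 to 54.7 over 37 to 54.5 in the double heterozygote channel.

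**Figure D2:**
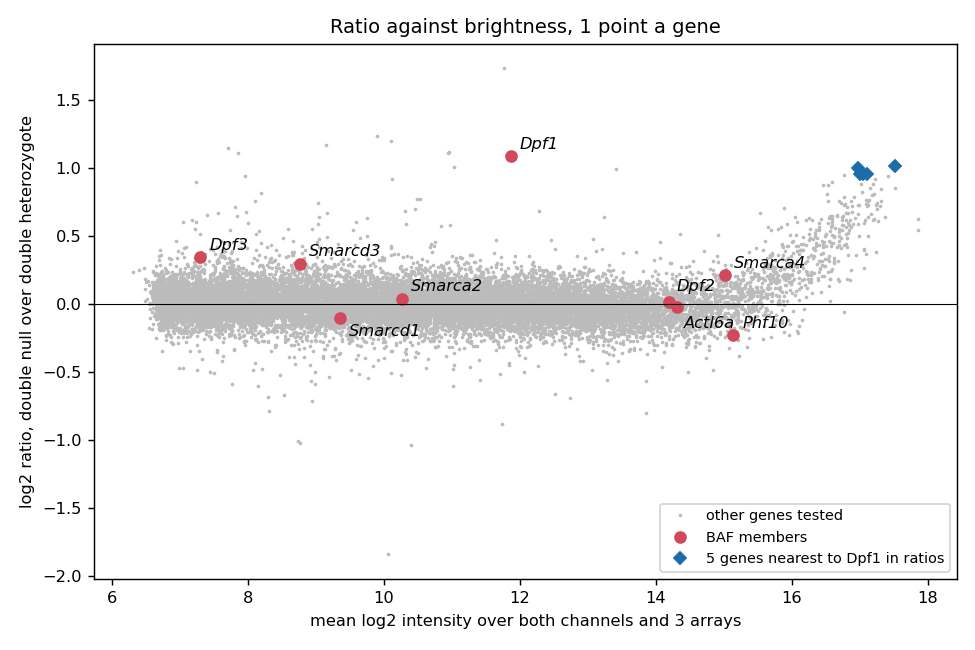
Mean log2 ratio of double null over double heterozygote (y axis) against mean log2 intensity (x axis) for all 16842 genes, with the BAF genes marked and named. Dpf1 lies at 1.09 where 1 other of 2070 genes of like intensity is higher, and the other marked genes lie between -0.23 and 0.35.

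The rest of the complex was read from a list of 20 other BAF subunit genes. Of these, 15 were tested, Bcl11a and Bcl11b did not pass the filter on dim probes, and Pbrm1, Bicra and Bicral were not analysed here. None of the 15 passed in limma (lowest adjusted p = 0.122), beside 2.44% of all genes. In limma an unadjusted p under 0.05 was reached by 3 of the 15, beside 3733 of all 16842 genes. Those 3 were Smarcd2, the remaining accessory subunit of the Smarcd family, at -0.19, Bcl7c at -0.17 and Ss18 at 0.14. Other Bcl7c probes had means of -0.06, -0.13 and -0.07. The ratio of Ss18 ran from 0.03 with processed signals to 0.94 with median centring. The ratios of the 15 genes ran from -0.19 to 0.14, with a median of 0.00406 against 0.00631 over all genes. The core scaffold genes Smarcc1 (-0.03), Smarcc2 (0.00) and Smarcb1 (-0.08) lay close to 0 at their brightest probes. So did the DNA-binding subunits Arid1a (0.05), Arid1b (-0.09) and Arid2 (-0.03). Other probes gave -0.02 and 0.13 for Arid2, 0.04 for Arid1b and 0.07 for Smarcc1. The levels of the genotypes overlapped for all 15, beside 13.1% of all genes that did not overlap. With median centring all 15 were called higher, with a median of 0.525 where all genes had a median of 0.369.

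Kat6a and Kat6b, acetyltransferases that carry the same kind of paired PHD fingers, had ratios of -0.03 and -0.01 and did not pass (lowest limma adjusted p = 0.761). Of 19 genes of other remodelling families, 0 passed in limma (lowest adjusted p = 0.0568) and 8 had an unadjusted p under 0.05, beside 3733 of all 16842 genes, with a range of -0.31 to 0.15 and a median of -0.06. Chd7, mutated in a human syndrome that affects the ear, had ratios of 0.07, -0.01 and 0.01 at its brightest probe and means of 0.20 and -0.11 at its other probes. Rest, a repressor of neuronal genes in cells outside the nervous system, had a ratio of -0.02 at its brightest probe (limma adjusted p = 0.864). Its other probes had means of 0.028 and 0.043. The corepressor Rcor1 had -0.19 at its brightest probe (limma adjusted p = 0.136) and means of -0.039 and -0.035 at its other probes.

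Because Dpf1 and Actl6b are subunits of neurons, and Dpf3 and Smarcd3 of muscle, markers of those cells are given beside them. Of 16 postmitotic neuron markers, 15 were tested, and in limma 1 had an unadjusted p under 0.05, beside 3733 of all 16842 genes. Of these markers 0 passed in limma (lowest adjusted p = 0.117), with a median of -0.000927. Their levels summed to 13270 to 15030 in double null pools and 13250 to 15400 in double heterozygote pools. The ratio was negative for 8 and positive for 7 of the 15. Nefl, Stmn2, Nefm and Tubb3, the brightest of them, had ratios of 0.06, -0.10, -0.06 and -0.04. The other Nefl probe had a mean of -0.10. Gap43, a growth cone protein named here after its values were seen, was the marker at an unadjusted p under 0.05, with ratios of 0.37, 0.32 and 0.07 (mean 0.25, limma adjusted p = 0.117). Neurod1, a transcription factor of early neurons, did not pass the filter on dim probes. The part of neurons in the Dpf1 ratio was not tested.

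Heart and skeletal muscle markers were read in the same way. Of 15 such genes, 9 were tested and 2 were called higher, beside 1.89% of all genes. All 9 ratios were positive, beside 8800 of all 16842 genes, with a median of 0.359. The list was chosen with earlier results of these data known, so nothing is read from these counts. Myod1, the master regulator of skeletal muscle, rose with ratios of 1.1, 1.33 and 1.27 (limma adjusted p = 0.00286). Tnni1, a troponin of slow and embryonic muscle that was well above background on 2 of 3 arrays in double heterozygote placodes, rose by 1.15 (limma adjusted p = 0.0043), with adjusted p = 0.0595 without replicate 3, a ratio of 2.3 from processed signals, and 0.71 at its other probe when both channels had to be above background. With separate channels in place of ratios within arrays, Myod1 had adjusted p = 0.236 and Tnni1 had adjusted p = 0.274. The 9 genes summed to 6861, 6175 and 10760 in double null pools, against 4902, 3996 and 7187 in double heterozygote pools. The heart and muscle markers Gata4, Tbx5, Hand2, Myl2, Myf5 and Myog did not pass the filter on dim probes. The part of such cells in the BAF ratios was not tested. Blood and endothelium markers summed to 4704, 1437 and 8217 in double null pools, against 1952, 1635 and 2425 in double heterozygote pools. In limma 0 of the 5 tested passed (lowest adjusted p = 0.114). An unadjusted p under 0.05 in limma was reached by 3, beside 3733 of all 16842 genes. Cdh5, 1 of these 3, was well above background on 2 of 3 arrays in double heterozygote placodes. Hbb-bh1, the brightest of the 5, had ratios of 1.43, -0.51 and 2.69.

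**Figure D3:**
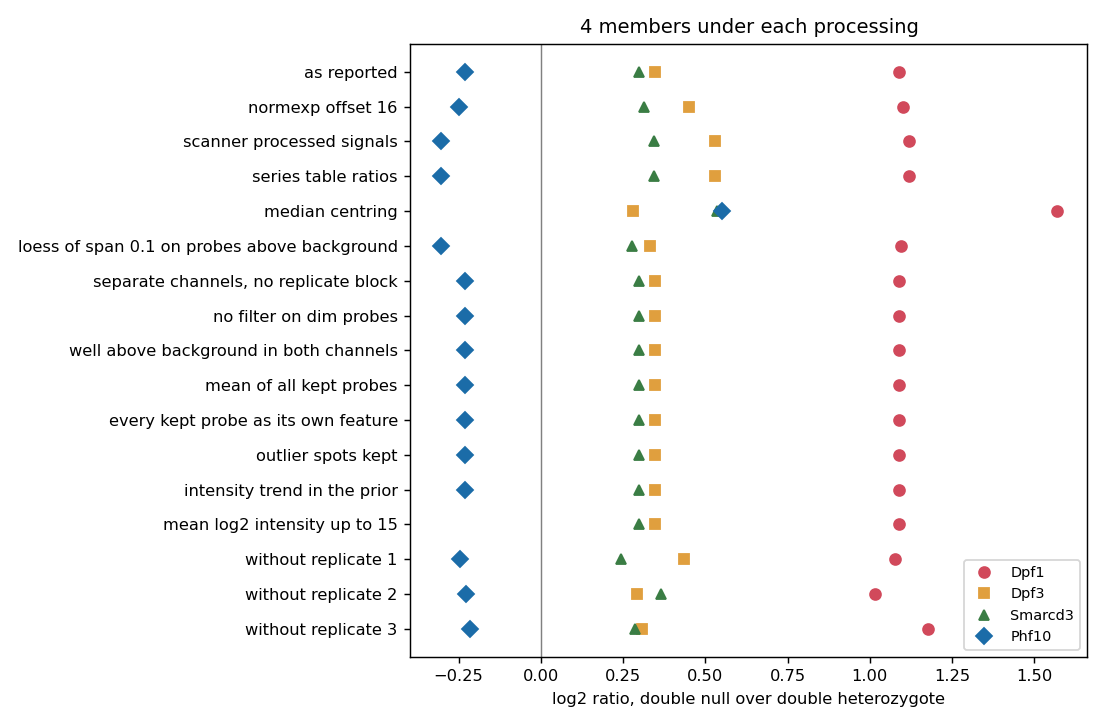
Log2 ratio of double null over double heterozygote (x axis) for Dpf1, Dpf3, Smarcd3 and Phf10 under the main setting and its alternatives (y axis). Dpf1 stays between 1.02 and 1.57, and the value of Phf10 changes sign with median centring, which moves the median of all genes by 0.369.

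The genes whose 3 ratios lay nearest to those of Dpf1, by Euclidean distance over the 3 arrays, were Rps23 (distance 0.173), Rps12 (0.215), Rpl5 (0.237), Rps14 (0.245) and Ldha (0.259). Rps23, Rps12, Rpl5 and Rps14 encode ribosomal proteins, and Ldha encodes a subunit of lactate dehydrogenase. Their mean log2 intensities were 16.97 to 17.52, whereas that of Dpf1 was 11.87. With the scanner's processed signals these 5 genes had ratios of 0.42 to 0.58, while Dpf1 had 1.12. The likeness of the 5 ribosomal and metabolic genes to Dpf1 therefore did not hold on both scales.

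Dpf1 lies on chromosome 7, as does Fgf3, and their probes are 115 Mb apart on mm7. Within 200 kb of the Dpf1 probe lay 17 other probes, of which 16 passed the filter, and these belonged to 15 genes. The ratios of the 16 probes ran from -0.44 to 0.40 with a median of -0.03. Kcnk6, a potassium channel gene whose probe lies 95234 bases before that of Dpf1, rose by 0.40 (limma adjusted p = 0.0406). Spred3, a member of the Sprouty-related family that restrains the MAP kinase pathway, fell by 0.44 (limma adjusted p = 0.0376), with its probe 157970 bases before that of Dpf1. Leaving out 1 array ended both calls, with adjusted p up to 0.197 for Kcnk6 (without replicate 3) and 0.116 for Spred3 (without replicate 2). These were 2 of 15 genes called, beside 2.44% of all genes. Ppp1r14a, a phosphatase inhibitor gene 26111 bases away, had 0.29 (limma adjusted p = 0.0562). Sipa1l3, on the opposite strand and 3356 bases away, had 0.12, 0.06 and 0.00 (mean 0.06, limma adjusted p = 0.515). No other measured probe within 200 kb had a ratio as high as that of Dpf1. Because Dpf1 was chosen by its ratio, nothing is read from this.

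**Figure D4:**
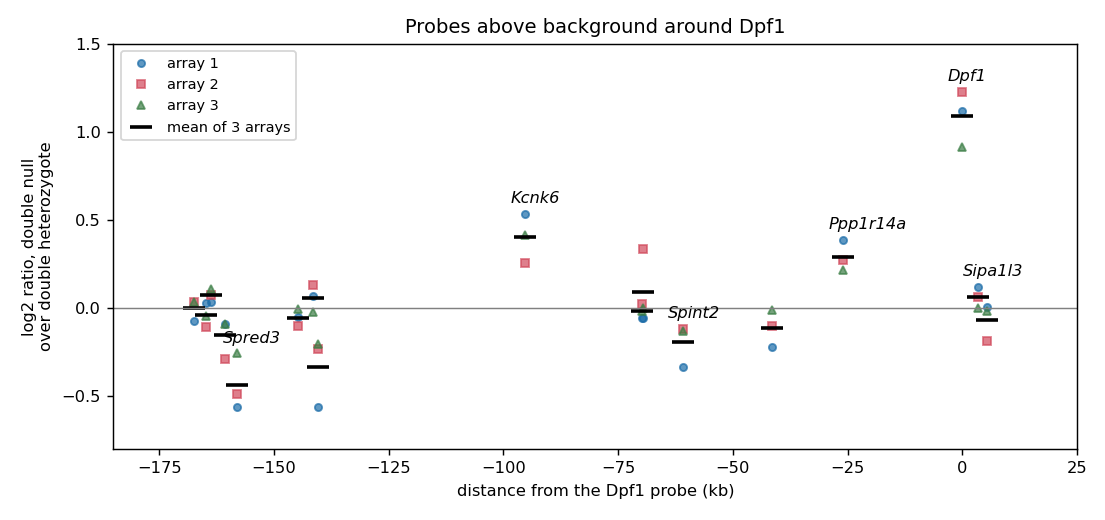
Log2 ratio of double null over double heterozygote (y axis) for probes within 200 kb of the Dpf1 probe, by distance from it (x axis, in kb), with a point for each of the 3 arrays. Dpf1 lies between 0.92 and 1.23, and the means of the other 16 measured probes lie between -0.44 and 0.40.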

How the data were processed

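Total RNA from 3 pools of each genotype was amplified, labelled and hybridised to 3 two-colour arrays, per the labels' protocols. Per the file headers and the submitters' processing notes, the authors used Agilent Feature Extraction 9.5.1.1 to read the spots. For each channel the deposited files give spot intensity, local background intensity and processed intensity, and for each spot a log10 ratio of Cy5 over Cy3. The deposited series table holds log2 ratios that matched this log10 ratio, converted to log2, within 2e-06, with column medians of -0.012, -0.0082 and -0.0031. All arrays share 1 slide and scan, so no batch could be tested.

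Intensities were corrected with normexp (offset 50) and normalized by loess (span 0.3). Outlier spots (143 to 175 per array) were left out, and probes well above background in either channel on all 3 arrays, with values on at least 2, were kept (25506). The brightest probe stood for a gene. RefSeq names on GRCm38.p6 were used. Means were tested in limma 3.58.1 (R 4.3.3), and the fit was tested on simulated data. The number of arrays limits the precision. Members and lists were chosen with earlier results of these data known. All members, the other BAF subunits, Kat6a, Kat6b and the Rest list could be named. So could remodellers past the threshold or otherwise the 2 brightest, up to 4 markers per list, the 5 genes nearest to Dpf1, and genes within 200 kb of it.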

Additional observations from a re-analysis of the deposited data

How the results depend on the processing

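The ratio of Dpf1 stayed positive under all 16 alternatives, between 1.02 and 1.57. Against 411 genes called over the whole array, 227 were called with a normexp offset of 16, 23 with loess of span 0.1 on probes above background, 21 when genes brighter than 15 on the log2 scale were left out, and 983 with an intensity trend in the prior. Median centring called 13349 genes, 89.1% of them higher, and 15 of the other BAF subunits, against 0 otherwise. In limma, processed signals called 0 genes (3226 at an unadjusted p under 0.05) and the deposited log2 ratios called 0 (3279). Each array pairs its pools, and separate channels with no replicate block called 187 genes, 92.5% of them higher. Leaving out 1 array gave 64 to 270 called genes, with 64 without replicate 3, 228 without replicate 2 and 270 without replicate 1. The cause of these changes was not tested. Spot brightness near background limits Actl6b and 2 Smarca2 probes, and 3 arrays without a dye swap limit every ratio.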
